A study of Schizosaccharomyces pombe with 28 samples.

Results

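The Sty1 stress pathway of the fission yeast Schizosaccharomyces pombe is followed here through 10 genes: the MAP kinase gene sty1, the transcription factor genes atf1 and pcr1, the phosphatase gene pyp2, the kinase gene srk1, and the stress targets gpd1, tps1, ntp1, hsp9 and cta3. They were chosen by their symbols in the probe annotation, and all 10 were found, with both of their probes each, among 4929 gene identifiers with 2 probes each. All 10 carried the same symbol in the RefSeq gene table. The data are 28 two-channel spotted arrays in a single group. Both channels of each array held cDNA of wild-type cells of strain LJY1014 (h- leu1-32), taken from separate cultures in early-log phase in YES, a rich medium, so that no channel carried a stress treatment or a mutant of the pathway. leu1-32 is a leucine auxotrophy and h- a mating type, and both apply to every sample, and ratios of like with like cannot check them. Each array is named by the hybridisation number of its title.

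The values are log2 ratios of the 2 channels, centred here on the median of each array and averaged over both probes of a gene. A value of 0 means equal signal in both channels. Which channel was the numerator, and whether dyes were swapped, is not given in the sources used here, so a sign names no sample. A mean over arrays is meaningful only if the channels had one orientation throughout, which the labels leave unstated. Ratios say nothing about transcript level, and no level is given.

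Sty1 is the stress-activated MAP kinase of fission yeast, a relative of mammalian p38. Osmotic, oxidative, heat and nutrient stress reach it through 2-component sensors and a kinase cascade that ends in the MAP kinase kinase Wis1. Active Sty1 phosphorylates the bZIP factor Atf1, which binds DNA together with its partner Pcr1 and switches on a shared programme called the core environmental stress response. The programme includes its own brakes, since pyp2 encodes a tyrosine phosphatase that inactivates Sty1.

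The arrays were not alike. Clustered on all genes, they fell into 3 sets that the labels do not give: arrays 1 to 8 with 19 and 20 (the first set, 10 arrays), arrays 9 to 18 (the second set, 10 arrays) and arrays 21 to 28 (the third set, 8 arrays). Pairs of arrays correlated with a median r of 0.657 over all genes when both came from one set, and 0.039 otherwise. The ranges overlapped, from 0.014 to 0.896 within sets and from -0.202 to 0.579 between them. The sets were cut from these same correlations, so the higher median within them is no test of the sets. The sets are possible batches and not study groups. Since they were formed from all genes, differences between them are described here without a test. P-values that treat the 28 arrays as independent are too small.

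The 10 genes followed the array sets to different degrees. In 6 of them, atf1, pcr1, gpd1, tps1, ntp1 and hsp9, every array of the third set lay above every one of the other 20 arrays, a pattern met by 1.42% of all genes (70 of 4929). This is a pattern of the probe means, and each probe alone kept it only in atf1, gpd1 and ntp1. For hsp9 neither probe did. Its probe 1 read 0.187 in array 11 and 0.081 in array 22, and its probe 2 0.098 in array 9 and -0.0087 in array 21. Probe 2 of pcr1 broke it (0.063 in array 5, -0.082 in array 21). So did probe 1 of tps1 (0.47 in array 1, 0.24 in array 22). sty1 and srk1 instead were lower in the second set than in the first, and pyp2 and cta3 overlapped in all 3 sets. In 5 genes, atf1, gpd1, tps1, ntp1 and hsp9, the SD over arrays was above the 90th percentile of all genes (0.287), while only 3.49% of genes had a lower SD than pyp2. The SDs of srk1, sty1 and cta3 were below the median of all genes (0.165). The kinase genes thus spread no more than the median gene, and the factor and metabolic enzyme genes more. In RNA of whole cultures a change in all cells and a change in a few of them cannot be told apart.

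**Figure D1:**
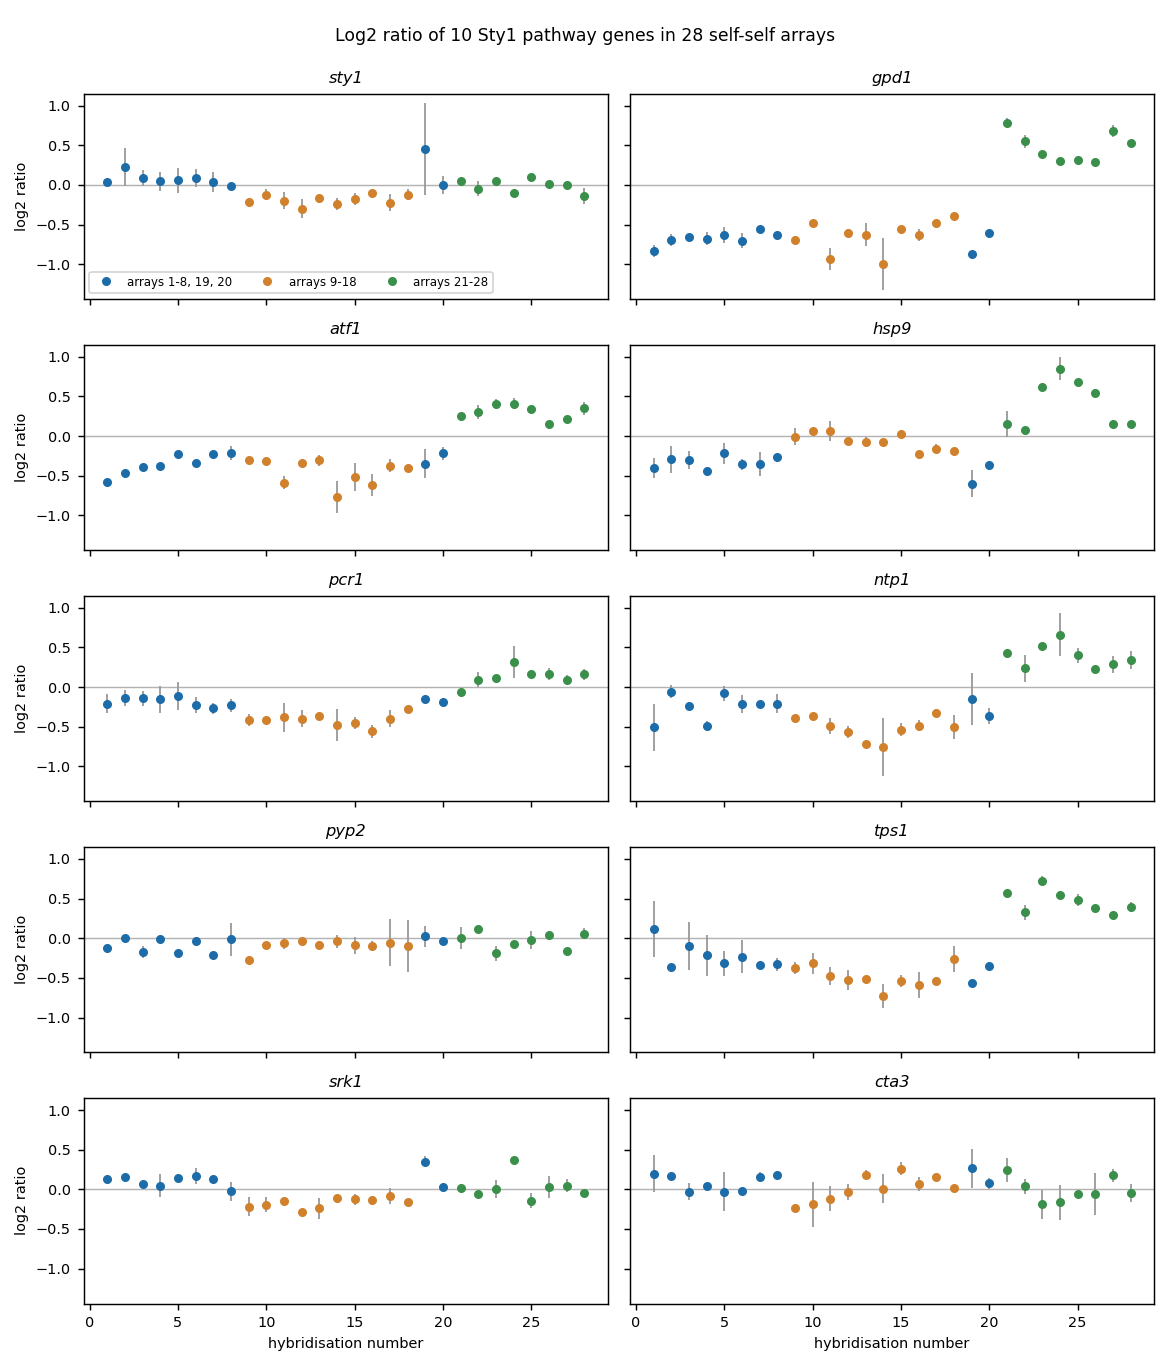
Log2 ratio (vertical axis) of each of the 10 genes by hybridisation number (horizontal axis), coloured by array set, with grey lines joining the values of the 2 probes of a gene. atf1, pcr1, gpd1, tps1, ntp1 and hsp9 are highest in arrays 21 to 28, sty1 and srk1 are lowest in arrays 9 to 18, and pyp2 and cta3 run only from -0.28 to 0.27.

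sty1 (SPAC24B11.06C) ranged from -0.30 in array 12 to 0.45 in array 19, with a median of -0.0095 and an SD of 0.16 (n = 28). In the first set it lay between -0.015 and 0.45, in the second between -0.30 and -0.097, and in the third between -0.14 and 0.10. The second set was thus wholly below the first, as in 5.94% of all genes, and the third overlapped both. The highest value came from a single probe: in array 19 the probes of sty1 read -0.13 and 1.03. Over all arrays the SD of the first probe was 0.115 and that of the second 0.280, and the probes correlated at 0.14.

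atf1 (SPBC29B5.01) ran from -0.77 in array 14 to 0.41 in array 24, with a median of -0.31 and an SD of 0.35 (n = 28). Its values were -0.58 to -0.22 in the first set (median -0.35), -0.77 to -0.30 in the second (median -0.39) and 0.15 to 0.41 in the third (median 0.32). The first and second sets overlapped, all 20 of their arrays were below 0, and all 8 arrays of the third were above 0. The mean of the third set exceeded that of the first 1.56-fold and that of the second 1.69-fold. Its probes kept the same order, with a correlation of 0.89.

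pcr1 (SPAC21E11.03C), the gene of the smaller partner of Atf1, showed the same order with a narrower range. It lay between -0.27 and -0.11 in the first set, between -0.56 and -0.27 in the second and between -0.062 and 0.32 in the third. Here the 3 sets did not overlap in the probe means, and the second was the lowest, as it was in 1.03% of all genes. The gap was small: the lowest array of the first set read -0.266 and the highest of the second -0.273. Each probe alone overlapped between these sets. Probe 1 read -0.333 in array 7 and -0.201 in array 11, and probe 2 -0.325 in array 1 and -0.290 in array 17. The SD over arrays was 0.23 (n = 28), above that of 79.4% of genes, and its pooled SD within sets was 0.078.

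pyp2 (SPAC19D5.01) had the smallest spread of the 10 genes, with an SD of 0.089 (n = 28) and a range from -0.28 to 0.11 around a median of -0.060. Its set medians were -0.036, -0.088 and -0.0071. The probes of pyp2 correlated at -0.26, so even this small spread was not shared by them.

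srk1 (SPCC1322.08), which encodes a MAPKAP-type kinase that is bound and phosphorylated by Sty1 and restrains entry into mitosis, moved in the same direction as sty1 between the first and second sets. It lay between -0.023 and 0.35 in the first set and between -0.29 and -0.083 in the second. In the third set it stood at 0.37 in array 24 and between -0.14 and 0.045 in the other 7 arrays. Unlike those of sty1, the probes of srk1 moved together, with a correlation of 0.66.

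Glycerol and trehalose are the stress solutes of fission yeast, and 3 of their enzyme genes, gpd1, tps1 and ntp1, had the highest SDs of the 10 genes. gpd1 (SPBC215.05), which encodes the glycerol-3-phosphate dehydrogenase that starts glycerol synthesis under osmotic stress, had the largest SD of the 10 genes at 0.55 (n = 28), rank 28 of all 4929. It ranged from -0.999 in array 14 to 0.78 in array 21, that is from a linear ratio of 0.500 to one of 1.72. The first set lay between -0.87 and -0.55, the second between -0.999 and -0.39, and the third between 0.29 and 0.78. Thus the first and second sets overlapped, both wholly below 0, and the third was wholly above 0, with a mean 2.24-fold that of the first set.

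tps1 (SPAC328.03), the gene of trehalose-6-phosphate synthase, had an SD of 0.43 (n = 28) and lay between -0.57 and 0.12 in the first set, between -0.73 and -0.26 in the second and between 0.30 and 0.72 in the third. Array 1 was the only one of the first 20 above 0, and there its probes disagreed, at 0.47 and -0.23. ntp1 (SPBC660.07), which encodes the neutral trehalase that breaks trehalose down, went the same way: -0.51 to -0.056 in the first set, -0.76 to -0.33 in the second and 0.22 to 0.66 in the third, with an SD of 0.40. Both genes were thus above 0 in every array of the third set, although within sets they correlated at only 0.08. For tps1 the third set exceeded the second 1.94-fold in the mean, and for ntp1 1.87-fold.

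hsp9 (SPAP8A3.04C), which encodes a small heat-shock protein, differed from tps1 and ntp1 in the order of the first and second sets. It lay between -0.60 and -0.22 in the first set, between -0.23 and 0.065 in the second and between 0.076 and 0.85 in the third, with an SD of 0.36 (n = 28). By the median the second set was thus the middle one for hsp9, as for gpd1 (medians -0.67, -0.62 and 0.46 in the 3 sets). For atf1, pcr1, tps1 and ntp1 the second set had the lowest median. It also held the lowest array for every member except hsp9, whose lowest was array 19.

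cta3 (SPBC839.06), which encodes a P-type cation-transporting ATPase and is a classic osmotic stress target, did not follow the others. It ranged from -0.23 in array 9 to 0.27 in array 19 with an SD of 0.14 (n = 28), and its set medians were 0.11, 0.014 and -0.052. Its probes correlated at 0.29 and averaged -0.055 and 0.13.

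Single arrays recurred at the extremes. Array 24 held the highest value of atf1, pcr1, srk1, hsp9 and ntp1, and array 14 the lowest of atf1, gpd1, ntp1 and tps1. In array 14 sty1 (-0.24) and cta3 (0.010) lay inside the range of their set, and pyp2 (-0.036) was at the top of it.

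**Figure D2:**
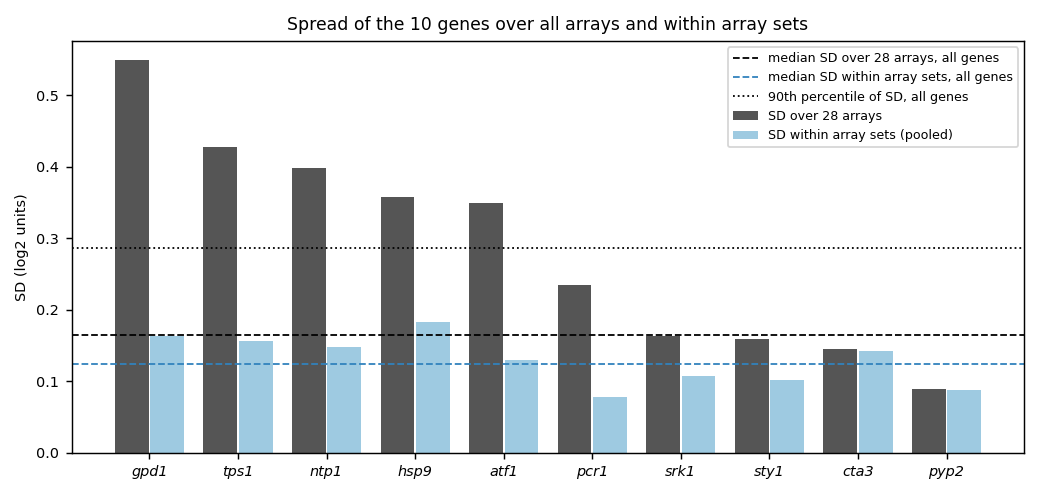
SD of the log2 ratio (vertical axis) for each of the 10 genes over 28 arrays (dark bars) and pooled within the 3 array sets (light bars), with dashed and dotted lines for all genes. Only hsp9, at 0.18, keeps a within-set SD above the median SD of all genes over 28 arrays (0.165). The within-set SDs of gpd1, tps1, ntp1, cta3, atf1 and hsp9 lie above the median within-set SD of all genes (0.124).

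Much of this spread lay between sets. The share of variance between sets was 91.8% for gpd1, 89.8% for pcr1, 87.6% for tps1, 87.2% for ntp1, 87.1% for atf1 and 75.7% for hsp9, against a median of 43.9% over all genes. For sty1 it was 62.1%, for srk1 60.1%, for cta3 11.2% and for pyp2 9.75%. With set means removed, the pooled SDs of gpd1 (0.16), tps1 (0.16), ntp1 (0.15) and atf1 (0.13) were much smaller. They stayed above the median within-set SD of all genes (0.124), as did that of cta3 (0.14), and hsp9 had the highest at 0.18.

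Whether both probes of a gene reported the same array differences was tested with an F test over all genes (array mean square over the array-by-probe mean square, Benjamini-Hochberg adjusted, threshold 0.05). Of the 10 genes 7 passed, against 53.2% of all genes. Adjusted p was 1.04e-12 for gpd1, 6.70e-10 for hsp9, 2.24e-09 for atf1, 6.98e-07 for tps1, 2.22e-06 for ntp1, 0.000246 for pcr1 and 0.000269 for srk1. sty1 (0.379), pyp2 (0.928) and cta3 (0.122) did not pass, so the second-set dip of sty1 is not shown to be shared by its probes over all arrays. Without the first set sty1 passed (adjusted p = 0.0467). pcr1 did not pass without the second set (0.0545). Without the third set only 2 of the 10 passed, srk1 and hsp9, while 41.9% of all genes did (2067).

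Once set means were removed, 2 of the 10 genes still passed, against 23.4% of all genes: hsp9 (adjusted p = 7.2e-05) and gpd1 (0.000558). atf1 had an adjusted p of 0.0648 and passed when array 15 or array 19 was left out. The other 7 had adjusted p from 0.135 for srk1 to 0.953 for pyp2.

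The variation of hsp9 and gpd1 within sets ran in opposite directions in the third set. In arrays 21, 22, 27 and 28 gpd1 read 0.78, 0.55, 0.68 and 0.52, and in arrays 23 to 26 it read 0.39, 0.30, 0.32 and 0.29. For hsp9 the first of these subsets read 0.15, 0.076, 0.16 and 0.15, and arrays 23 to 26 read 0.62, 0.85, 0.68 and 0.54. The ranges did not overlap for either gene: arrays 23 to 26 averaged 1.45-fold the other 4 for hsp9, while for gpd1 the other 4 averaged 1.24-fold arrays 23 to 26. Arrays 23 to 26 lay wholly above the other 4 in 9.6% of all genes and wholly below them in 9.92%, and this division of the set was known from earlier results on all genes, so it is given as a description. cta3 went with gpd1, at 0.25, 0.040, 0.18 and -0.047 against -0.19, -0.17, -0.058 and -0.057, though it did not pass the probe test. The remaining 7 genes overlapped between these arrays, atf1 with means of 0.28 ± 0.05 and 0.33 ± 0.12 (SD, n = 4 each).

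**Figure D3:**
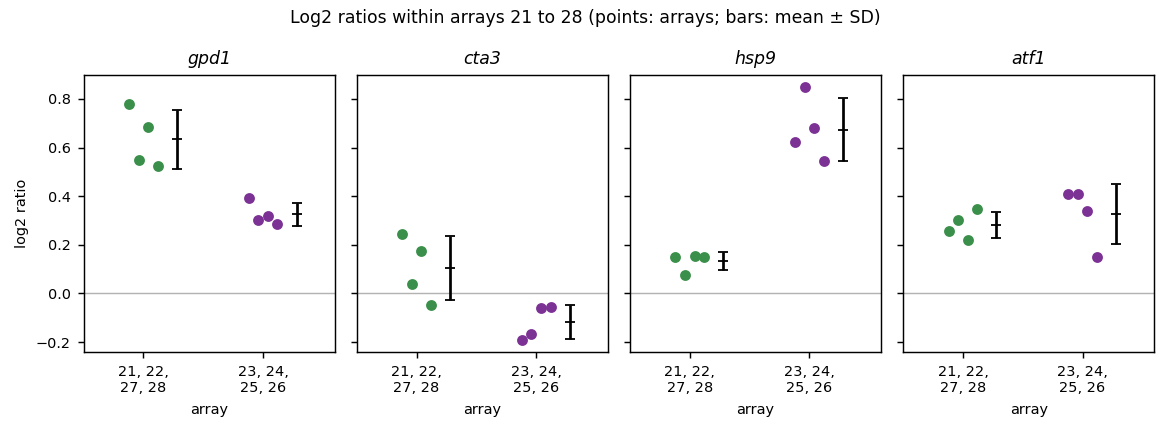
Log2 ratio (vertical axis) of gpd1, cta3, hsp9 and atf1 in arrays 21, 22, 27 and 28 and in arrays 23 to 26 (points), with mean and SD (bars, n = 4). gpd1 and cta3 are lower and hsp9 is higher in arrays 23 to 26 without overlap, and atf1 overlaps.

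Gene length was set beside these values. Spearman's rho between ratio and RefSeq gene length across 4791 genes ran from -0.241 to -0.171 in the first set, from -0.207 to -0.136 in the second and from -0.171 to 0.031 in the third. The 6 genes that were highest in the third set spanned lengths from 720 bases (hsp9) to 3646 (atf1), around the median of all genes of 1811. Within the third set, rho spanned -0.171 to 0.014 for arrays 21, 22, 27 and 28, overlapping the span of -0.054 to 0.031 for arrays 23 to 26. The part of length in the members' ratios was not tested.

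Mean ratios over all 28 arrays were tested against 0 with limma across all genes. Of the 10 genes 4 passed, all below 0, against 51.9% of all genes (23.3% below 0 and 28.6% above). gpd1 averaged -0.34 (SE 0.10, n = 28, adjusted p = 0.0047, below 0 in 20 arrays), atf1 -0.20 (SE 0.07, adjusted p = 0.00945, below 0 in 20), pcr1 -0.17 (SE 0.04, adjusted p = 0.00112, below 0 in 21) and pyp2 -0.069 (SE 0.017, adjusted p = 0.00321, below 0 in 22). The other 6 did not pass, with adjusted p of 0.0526 for ntp1, 0.128 for tps1, 0.243 for cta3, 0.357 for sty1, 0.646 for hsp9 and 0.798 for srk1. For ntp1 the call depended on single arrays: leaving out any 1 of arrays 21 to 28 changed it, and the adjusted p ranged from 0.0169 to 0.0924 over all such removals.

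With the array sets as a random block, 0 of the 10 genes passed in limma, and 1.5% of all genes did. The adjusted p was then 0.236 for pcr1, 0.289 for gpd1, 0.408 for atf1 and 0.585 for pyp2, and of the 4 calls without the block none was kept. The means of gpd1 and atf1 below 0 combined 20 negative arrays and 8 positive ones, so neither had a sign common to the sets. Without arrays 9 to 18 only srk1 passed, above 0 (1 of the 10, against 41.6% of all genes), and without arrays 21 to 28 hsp9, ntp1 and tps1 joined the 4, all below 0 (7 of the 10, against 54.7%). Without the first set atf1 and gpd1 no longer passed in limma (adjusted p of 0.266 and 0.377), while sty1 (-0.11, adjusted p = 0.00262) and srk1 (-0.083, adjusted p = 0.0432) did. pyp2 had negative means of -0.077, -0.094 and -0.028 in the 3 sets, yet its probe 1 alone did not pass in limma (adjusted p = 0.140, with 46.2% of all genes passing).

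Further parts of the pathway were taken from lists written with earlier results of these data known. The lists of kinases and phosphatases, of factors, of targets and of metabolic genes also hold some of the members, so their counts are not independent of those above. The list of upstream signalling held 10 genes, prr1 among them, and whether each acts above Sty1 was not checked. Of these 10, 2 passed the probe test, against 53.2% of all genes, and the median SD was 0.138, against 0.165 over all genes. The 2 that passed were mpr1 (SD 0.22), which encodes the phosphotransfer protein between the sensor kinases and the response regulator Mcs4, and tdh1 (SD 0.33), a glyceraldehyde-3-phosphate dehydrogenase gene whose product also binds Mcs4. mpr1 lay between -0.65 and -0.22 in the first set, between -0.53 and -0.22 in the second and between -0.15 and 0.15 in the third, so that the third set lay wholly above the rest, as for atf1. tdh1 lay between 0.14 and 0.42, between -0.69 and 0.11, and between -0.056 and 0.63, and so dipped in the second set.

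The sensor kinase genes mak1, mak2 and mak3 (SDs 0.11, 0.11 and 0.18), the response regulator genes mcs4 (0.099) and prr1 (0.16), the MAP kinase kinase kinase genes wis4 (0.11) and win1 (0.31) and the MAP kinase kinase gene wis1 (0.11) did not pass the probe test. win1 reached 0.78 in the first set, but its probes correlated at -0.067. In the mean test 1 of the 10 passed above 0 (wis4) and 3 below (mak2, mpr1 and wis1), against 28.6% and 23.3% of all genes. None of these passed with the sets as a block (1.5% of all genes), where adjusted p for mpr1 was 0.0642.

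Among 9 listed genes of kinases and phosphatases, sty1 itself included, 3 passed the probe test, against 53.2% of all genes: srk1, pyp1 and ptc4. Without the members sty1, pyp2 and srk1 it was 2 of 6. pyp1, the gene of the main tyrosine phosphatase that keeps Sty1 inactive in growing cells, had an SD of 0.27 and set medians of -0.12, -0.36 and 0.18, with its lowest array at -0.81, and so was far more variable than pyp2. ptc4, a type 2C phosphatase gene, lay between -0.085 and 0.75 in the first set, between -0.22 and 0.015 in the second and between -0.33 and 0.11 in the third. ptc1, ptc2, ptc3 and cmk2, of which cmk2 encodes a calmodulin-dependent kinase, had SDs of 0.17, 0.085, 0.12 and 0.11 and did not pass. The mean test called ptc3 above 0 and pyp1, pyp2 and ptc2 below (28.6% and 23.3% of all genes), and 0 of the 9 with the block (1.5%).

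Of 8 genes of stress transcription factors and the RNA-binding protein Csx1, 4 passed the probe test, near the 53.2% of all genes: atf1, pcr1, atf21 and csx1. Without the members atf1 and pcr1 it was 2 of 6. atf21, which encodes a bZIP relative of Atf1, had an SD of 0.25 and a range from -0.53 to 0.80, both extremes in the second set. csx1, whose product stabilises atf1 mRNA in oxidative stress, ranged only from -0.41 to 0.24, but its probes correlated at 0.84 and it also passed within sets (adjusted p = 0.000401). The bZIP gene atf31, the oxidative stress factor gene pap1, the heat-shock factor gene hsf1 and the glucose-repression factor gene rst2 had SDs of 0.17, 0.12, 0.11 and 0.14 and did not pass. Only atf1 and pcr1 of these 8 had all arrays of the third set above all others, as 1.42% of all genes did. In the mean test hsf1 passed above 0 (28.6% of all genes) and atf1, pcr1, atf31 and pap1 below (23.3%). With the block 0 of 8 did, and 1.5% of all genes.

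**Figure D4:**
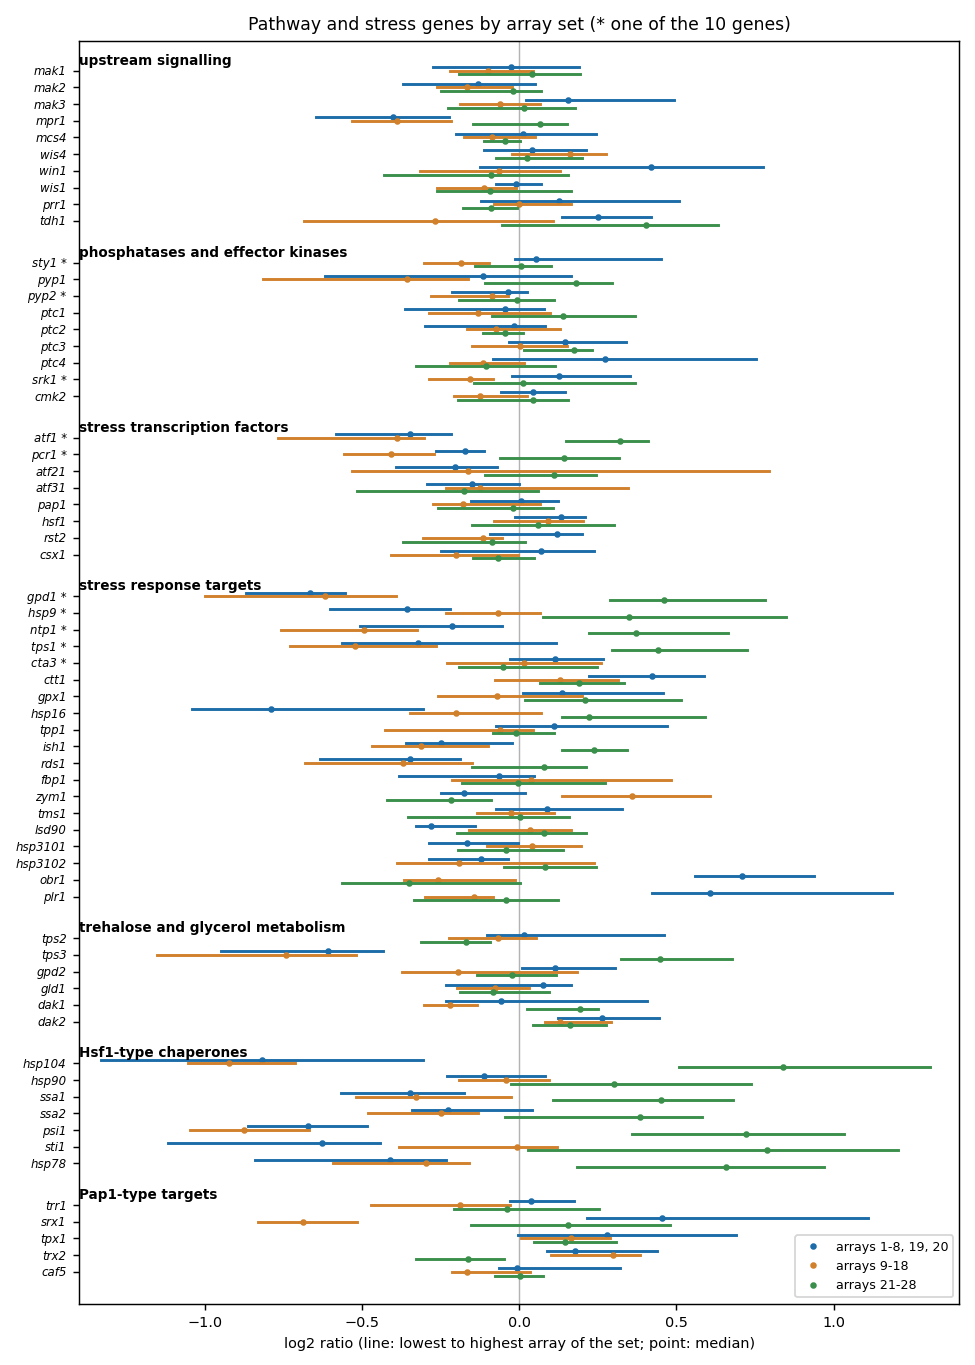
Range (line) and median (point) of the log2 ratio (horizontal axis) in each array set for the listed pathway and stress genes, each drawn under the first list that holds it. The range of the third set lies apart above 0 for gpd1, tps3, ish1 and the chaperone genes hsp104 and psi1, that of the first set for obr1 and plr1, and that of the second set for zym1.

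The stress targets did not move as one group. Of 19 listed targets, 11 passed the probe test, a share near the 53.2% of all genes. Their median SD was 0.244, and 6 had the third set wholly above the rest, as 1.42% of all genes did. These were gpd1, tps1, ntp1, hsp9, the small heat-shock gene hsp16 and ish1, which encodes a nuclear envelope protein induced by stress. Of the 14 targets that are not members, 7 passed the probe test, and 2, hsp16 and ish1, had the third set wholly above the rest. The highest SDs of the 19 were those of gpd1 (0.55), obr1 (0.50), hsp16 (0.47) and tps1 (0.43), and the lowest that of hsp3101 (0.13). hsp16 lay between -1.04 and -0.31 in the first set, between -0.35 and 0.071 in the second and between 0.14 and 0.59 in the third, close to the order of hsp9.

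Others followed different sets. obr1, also a target of Pap1, lay between 0.56 and 0.94 in the first set and between -0.57 and 0.0037 in the rest, a first set wholly above the others being found in 1.83% of all genes. plr1, a pyridoxal reductase gene, was likewise at 0.42 to 1.19 in the first set and at most 0.12 elsewhere. The metallothionein gene zym1 stood between 0.14 and 0.61 in the second set and between -0.42 and 0.018 in the others, as the second set did in 0.954% of all genes. Thus each of the 3 sets was the highest for some genes of one target list. The catalase gene ctt1 averaged 0.25 (SE 0.03, n = 28), but its probes correlated at -0.71. In the mean test 2 of the 19 passed above 0 and 5 below (28.6% and 23.3% of all genes), and 0 with the block (1.5%).

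Of 10 genes of trehalose and glycerol metabolism 6 passed the probe test, again near the 53.2% of all genes. Without the members gpd1, tps1 and ntp1 it was 3 of 7. tps3, a further gene of the trehalose-phosphate synthase family, had an SD of 0.57, above that of gpd1, and lay between -0.95 and -0.43, between -1.15 and -0.52 and between 0.32 and 0.68 in the 3 sets. After it came gpd1, tps1 and ntp1, and the lowest SD was that of the dihydroxyacetone kinase gene dak2 (0.097). The trehalose-phosphatase gene tpp1 (SD 0.20, -0.085 to 0.11 in the third set) and tps2 (0.19) did not follow tps1. Nor did gpd2, another glycerol-3-phosphate dehydrogenase gene, which lay between -0.14 and 0.12 in the third set. Related genes such as tps1 to tps3 and gpd1 with gpd2 could share hybridisation signal, and probe sequences were not used here. In the mean test 1 of these 10 genes passed above 0 and 2 below (28.6% and 23.3% of all genes), and 0 with the block (1.5%).

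Genes of the heat-shock factor regulon were set beside them, since hsp9 and hsp16 respond to heat. All 8 listed chaperone genes passed the probe test (53.2% of all genes) and 7 passed within sets (23.4%), with a median SD of 0.487. The highest SDs were those of hsp104 (0.84), psi1 (0.72), sti1 (0.62) and hsp78 (0.51), and the lowest that of hsp90 (0.24). In 5 of the 8, hsp16 among them, the third set lay wholly above the rest, as in 1.42% of all genes. The disaggregase gene hsp104 lay between -1.33 and -0.31, between -1.05 and -0.71 and between 0.51 and 1.31 in the 3 sets. In the mean test 0 of the 8 passed above 0 and 3 below (28.6% and 23.3% of all genes), and 0 with the block (1.5%). Of 7 measured targets of the oxidative stress factor Pap1, 4 passed the probe test (53.2% of all genes), srx1 (0.57), obr1 (0.50), trx2 (0.21) and trr1. The fourth highest SD was that of tpx1 (0.19) and the lowest that of caf5 (0.12). None of the 7 had the third set wholly above the rest (1.42% of all genes). In the mean test 3 passed above 0 and 0 below (28.6% and 23.3% of all genes), and 0 with the block (1.5%). Without the third set the probe test called 41.9% of all genes, down from 53.2%, and several of these counts fell too. It then called 1 of the 10 upstream signalling genes, 2 of the 9 kinase and phosphatase genes and 2 of the 8 factor genes. Among the rest it called 6 of the 19 targets, 2 of the 10 metabolic genes, 5 of the 8 chaperone genes and 4 of the 7 Pap1 targets.

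Likeness between genes was measured by Pearson's r over 28 arrays after removal of set means. These correlations share the arrays, their centring and any structure left within sets, and are a description. Among the 10 genes the highest were pcr1 with hsp9 (0.46), atf1 with ntp1 (0.46) and atf1 with gpd1 (0.43), and the lowest was hsp9 with cta3 (-0.55). hsp9 and gpd1 stood at -0.44, although both were high in the third set, and sty1 and atf1 at -0.16. Ranked among all other 4928 genes by likeness to each of the 10 in turn, the other 9 had a median rank of 2242.5, close to the middle of the order. The best rank was that of atf1 for ntp1, at 68. Within sets the 10 genes were therefore not near neighbours of each other by this measure. Only gpd1 and hsp9 passed the within-set probe test. For the other 8 the ranks cannot show whether the genes were alike, since their probes were not shown to share the variation ranked.

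**Figure D5:**
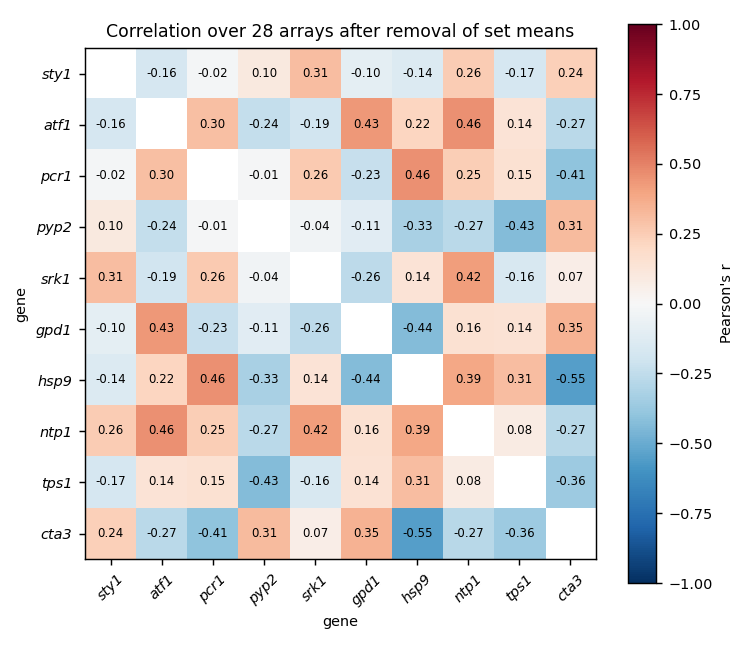
Pearson's r (colour and printed value) between each pair of the 10 genes over 28 arrays after removal of set means. Values run from -0.55 (hsp9 with cta3) to 0.46 (pcr1 with hsp9, atf1 with ntp1).

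The gene outside the 10 that was most like each member by this measure was SPBC30D10.14 for atf1 (0.78), pgp1 for gpd1 (0.85), the RNA export gene mlo3 for hsp9 (0.84), pan2 for sty1 (0.83), the septin gene spn5 for cta3 (0.78), the recombination gene rad54 for pcr1 (0.76), alt1 for ntp1 (0.72), iah1 for srk1 (0.70), app1 for pyp2 (0.64) and mug161 for tps1 (0.62). The correlation of SPBC30D10.14 with atf1 was 0.97 when set means were kept, whereas that of rad54 with pcr1 fell to 0.32 and that of alt1 with ntp1 to 0.13. Of the members only gpd1 and hsp9 passed the within-set probe test. With set means removed, the 2 probes correlated at -0.27 for sty1, -0.20 for pcr1 and -0.30 for pyp2. The neighbours of these genes thus rest on patterns that their own probes did not share.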

How the data were processed

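The authors scanned the slides on a GenePix 4000A, extracted them with GenePix Pro 4.0, corrected the background, removed flagged and dim features and deposited medians of log2 ratios, per the labels. The deposited log2 table has 0 missing values, so removed spots cannot be told from it. Array medians ran from -0.29 in array 27 to 0.010, and the step that set them is not given in the sources used here. No intensities were used, so the number of arrays limits the precision.

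Array medians were subtracted, and both probe values of a gene were then averaged (Python 3.11.15, numpy 2.4.6). No filter on low values was applied. Genes were named from the platform annotation and the RefSeq gene table (ASM294v3; 4791 of 4929 matched). Means were tested with limma 3.58.1 in R 4.3.3 (lmFit, robust eBayes, two-sided), and probe agreement with F tests on 27 and 27 degrees of freedom (25 and 25 within sets), all adjusted over 4929 genes by Benjamini-Hochberg at 0.05. Both were tried on simulated data with independent arrays and no array sets, which cannot show how they behave with the sets found here. Array sets came from average-linkage clustering on 1 minus r, cut at 3. Members, gene lists, sets and tests were chosen with earlier results of these data known. Named genes were all members, the gene most like each, every gene of the 3 signalling lists, and the 4 highest and the lowest SDs of the longer lists. Further genes were named after their values were seen: ish1, plr1, zym1, ctt1, tpp1, tps2, gpd2 and trr1. The planned promoter search was not run, since no sequence was used here. Alternatives were no centring, array scaling, single probes, other priors, the block, removal of sets, of arrays 25 to 28 and of the first component, Spearman's rho, and, added after seeing the data, removal of each array.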

Additional observations from a re-analysis of the deposited data

How the results depend on the processing

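With the sets as a random block 74 genes and 0 of the 10 passed the mean test (2559 and 4 without). Without arrays 9 to 18, 1 of the 10 passed it, and without arrays 21 to 28, 7. The probe test called 1624 genes without arrays 9 to 18 and 2 of the 10 without arrays 21 to 28. The within-set probe test called 1855 genes with no centring, 606 without arrays 9 to 18 and 760 without arrays 21 to 28 (1152 as reported). Leaving out single arrays gave 2425 to 2605 genes and 4 to 5 of the 10 in the mean test, 2521 to 2656 and 7 in the probe test, and 1012 to 1234 and 2 to 3 within sets. Without arrays 21 to 28 the mean test called 12 of 19 targets (7 as reported) and all 8 chaperone genes (3 as reported), against 54.7% of all genes. It called 0 chaperone genes with array scaling (2475 genes called in all) or without arrays 9 to 18 (41.6% of all genes). Signs turned for 6 means that did not pass the test: hsp9 with array scaling (0.0022), probe 2 alone (0.0054) and without the first set (0.14), srk1 and cta3 with probe 1 alone (0.017 and -0.055), and, without arrays 9 to 18, sty1 (0.052), srk1 (0.079, adjusted p = 0.0493 in limma), ntp1 (0.032) and tps1 (0.058). The causes were not tested. When set means were kept, the median likeness rank of the 10 was 1133.5. No paired analysis was possible because all arrays belong to 1 group.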
